A study of Mus musculus with 2 samples.

Results

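The 42 S phase genes described here encode proteins that a cell makes to copy its DNA: the MCM helicase, the factors that load and start it, polymerases and their sliding clamp, enzymes that make nucleotides, repair and checkpoint factors, and proteins that supply and handle histones. They were taken by symbol from the 31053 genes of the deposited tables, each was found once, and their levels were read across cell classes of mouse bone marrow. The marrow was that of aged C57BL/6J recipients of a fecal microbiota transplant. The donors were young in the group called FMT_young and aged in the group called FMT_aged, with 1 single-cell library each. Each library combined flow-sorted whole marrow, lineage-negative cells and lineage-negative Kit+ progenitors in parts of 1, 1 and 4, which enriches progenitors. The recipients' exact age, the number of animals in a library and the sequencing batch are not given in the labels, and anything that differed between the libraries besides the donors cannot be told apart from the donors. A single library in each group allows neither a replicate check nor a test.

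Genes of this kind are held silent in resting cells by retinoblastoma family proteins and are switched on together by E2F transcription factors when a cell passes from G1 into S phase. Blood stem cells are mostly resting, whereas the progenitors they give rise to divide fast, and neutrophils, plasma cells and most lymphocytes have left the cycle when they mature. A set of S phase genes therefore points to marrow cells that are in the cycle, and a few members that also serve outside S phase can be seen in resting cells. The copying of DNA itself was not measured here.

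The 2 libraries held 214982156 UMIs (FMT_young) and 207642851 UMIs (FMT_aged), where a UMI stands for 1 captured RNA molecule. A barcode was called a cell from 1000 UMIs and 500 genes upwards, with a mitochondrial share of 10% or less. This gave 11932 cells in FMT_young and 11351 in FMT_aged, of which 1139 and 1031 presumed doublets were then removed. The 10793 FMT_young and 10320 FMT_aged cells that were kept had medians of 10996 and 11552.5 UMIs, and 34 called barcodes occurred in both libraries. Clustering without cell cycle genes gave 29 clusters, which were named from marker genes as resembling a cell type, and 12 classes with at least 50 cells in each library were compared. Left unnamed were 4 clusters, and no cluster met the naming rule for erythroid, megakaryocytic or pro-B and pre-B cells. Levels are CPM, the UMIs of a gene scaled to the same total of UMIs in every class and library. Intervals in parentheses are 95% intervals and cover counting error only, except those of list medians, which describe the spread among the genes of a list.

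E2F proteins bind strings such as TTTCCCGC, TTTGGCGC, TTTGCCGC and TTTCGCGC in promoters, so the promoters of the members were searched for these 4 strings on both strands. Of the 42 members, 32 had an entry in the RefSeq promoter table (GRCm38.p6, from 250 bases before to 50 bases after the gene start). At least 1 string was present in 13 of these 32 (40.6%), against 704 of all 27025 genes with an entry (2.60%). To show where the strings lie, the promoters of the 4 MCM genes with a match and of 2 further members, Cdc6 and Hells, are printed. They run 5′ to 3′ on the strand of the gene, with the strings in capitals. Cdc6 and Hells were picked as the lowest, among matched members outside the MCM genes, in the histone order described further on. Their low place in that order was therefore fixed by the choice. Of the MCM genes printed, Mcm3 and Mcm6 were among the members lower in histone-rich cells, and Mcm5 and Mcm7 were not. A match is a description of these letters and does not show that a factor binds there.
Mcm3: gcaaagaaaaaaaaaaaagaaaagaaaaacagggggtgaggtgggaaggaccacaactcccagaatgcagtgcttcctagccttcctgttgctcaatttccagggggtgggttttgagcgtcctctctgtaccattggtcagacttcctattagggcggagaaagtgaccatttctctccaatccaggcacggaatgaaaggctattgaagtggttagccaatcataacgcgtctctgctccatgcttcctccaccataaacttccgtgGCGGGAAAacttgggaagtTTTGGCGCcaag
Mcm6: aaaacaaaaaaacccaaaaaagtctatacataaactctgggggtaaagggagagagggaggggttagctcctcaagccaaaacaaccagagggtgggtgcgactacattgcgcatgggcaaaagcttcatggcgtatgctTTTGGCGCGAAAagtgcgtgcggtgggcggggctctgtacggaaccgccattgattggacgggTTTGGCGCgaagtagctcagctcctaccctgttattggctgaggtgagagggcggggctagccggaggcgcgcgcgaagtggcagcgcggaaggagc
Mcm5: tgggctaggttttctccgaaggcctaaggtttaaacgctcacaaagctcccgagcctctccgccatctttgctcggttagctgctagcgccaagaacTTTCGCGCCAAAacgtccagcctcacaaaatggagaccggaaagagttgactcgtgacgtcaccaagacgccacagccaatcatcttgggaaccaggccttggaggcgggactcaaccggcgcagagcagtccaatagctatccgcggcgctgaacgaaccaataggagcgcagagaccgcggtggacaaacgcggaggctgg
Mcm7: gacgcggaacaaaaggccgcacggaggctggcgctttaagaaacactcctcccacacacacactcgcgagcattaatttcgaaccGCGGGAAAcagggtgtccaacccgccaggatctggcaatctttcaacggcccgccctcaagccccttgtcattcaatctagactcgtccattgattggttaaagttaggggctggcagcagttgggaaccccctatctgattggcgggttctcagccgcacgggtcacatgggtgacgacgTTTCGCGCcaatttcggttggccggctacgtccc
Cdc6: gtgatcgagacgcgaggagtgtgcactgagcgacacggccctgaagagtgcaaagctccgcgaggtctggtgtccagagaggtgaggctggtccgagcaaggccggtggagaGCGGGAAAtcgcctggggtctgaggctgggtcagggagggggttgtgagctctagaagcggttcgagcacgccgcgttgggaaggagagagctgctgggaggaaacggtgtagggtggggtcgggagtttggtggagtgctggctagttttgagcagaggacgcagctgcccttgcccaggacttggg
Hells: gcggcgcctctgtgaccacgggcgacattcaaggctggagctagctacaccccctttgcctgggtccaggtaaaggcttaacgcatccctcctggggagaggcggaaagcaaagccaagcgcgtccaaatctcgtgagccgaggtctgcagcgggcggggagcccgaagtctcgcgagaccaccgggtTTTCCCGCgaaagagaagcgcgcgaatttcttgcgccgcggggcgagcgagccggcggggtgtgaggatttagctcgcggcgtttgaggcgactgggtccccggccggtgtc

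The windows lie at chr1:20820263-20820562 (minus strand) for Mcm3, chr1:128359656-128359955 (minus strand) for Mcm6, chr8:75109259-75109558 (plus strand) for Mcm5, chr5:138171834-138172133 (minus strand) for Mcm7, chr11:98907901-98908200 (plus strand) for Cdc6 and chr19:38930740-38931039 (plus strand) for Hells. The 3 strings of Mcm6 fall within 110 to 40 bases before its start and those of Mcm5 within 153 to 142 bases before it, while both strings of Mcm3 lie after the start, 19 to 45 bases into the gene. Cdc6 carries its string 138 bases and Hells 62 bases before the start. All these distances use the start in the promoter table, and the GENCODE annotation differs. There Cdc6 starts at chr11:98907801 and Mcm7, on the minus strand, at chr5:138172422, so both windows lie inside these genes. Hells starts at chr19:38930915 there, so its string also lies inside the gene. For Mcm5 and Mcm6 the end of the window was not found in a GENCODE transcript of the gene. The other members with a match were Cdca7, Uhrf1, Dtl, Ubr7, Pold3, Clspn and Pola1.

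Progenitor classes had the highest S phase levels in both libraries, and mature neutrophil-like and plasma cell-like cells the lowest. Summed over the 42 genes, monocyte progenitor-like cells had 4187 CPM in FMT_young (4164 to 4209) and 4461 CPM in FMT_aged (4440 to 4482). Stem and multipotent progenitor-like cells followed with 3748 CPM in FMT_young and 3880 CPM in FMT_aged. Granulocyte-monocyte progenitor-like cells (GMP-like) had 3357 and 3681 CPM, immature neutrophil progenitor-like cells 3406 and 3506 CPM, and basophil-like, eosinophil-like or mast cell-like cells 3102 and 3887 CPM in FMT_young and FMT_aged. These 4 classes changed places between the libraries, so their order is not settled by these data. Monocyte-like cells had 3155 CPM in FMT_young and 3125 CPM in FMT_aged.

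A second tier lay well below the progenitors. Conventional dendritic cell-like cells had 2050 CPM in FMT_young and 1879 CPM in FMT_aged, and plasmacytoid dendritic cell-like cells 1440 and 1724 CPM. Mature B cell-like cells had 1050 CPM in FMT_young and 1678 CPM in FMT_aged, and cells resembling T, NK or innate lymphoid cells had 1245 and 1115 CPM, so that these last 2 classes also changed places. Plasma cell-like cells had 318 CPM in FMT_young and 395 CPM in FMT_aged, and mature neutrophil-like cells 326 and 264 CPM, again in a different order in each library. Stem-like cells were 3.70 higher on the log2 scale than mature neutrophil-like cells over both libraries. At a clustering resolution of 0.5, with other classes formed, this difference was 1.20.

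**Figure D1:**
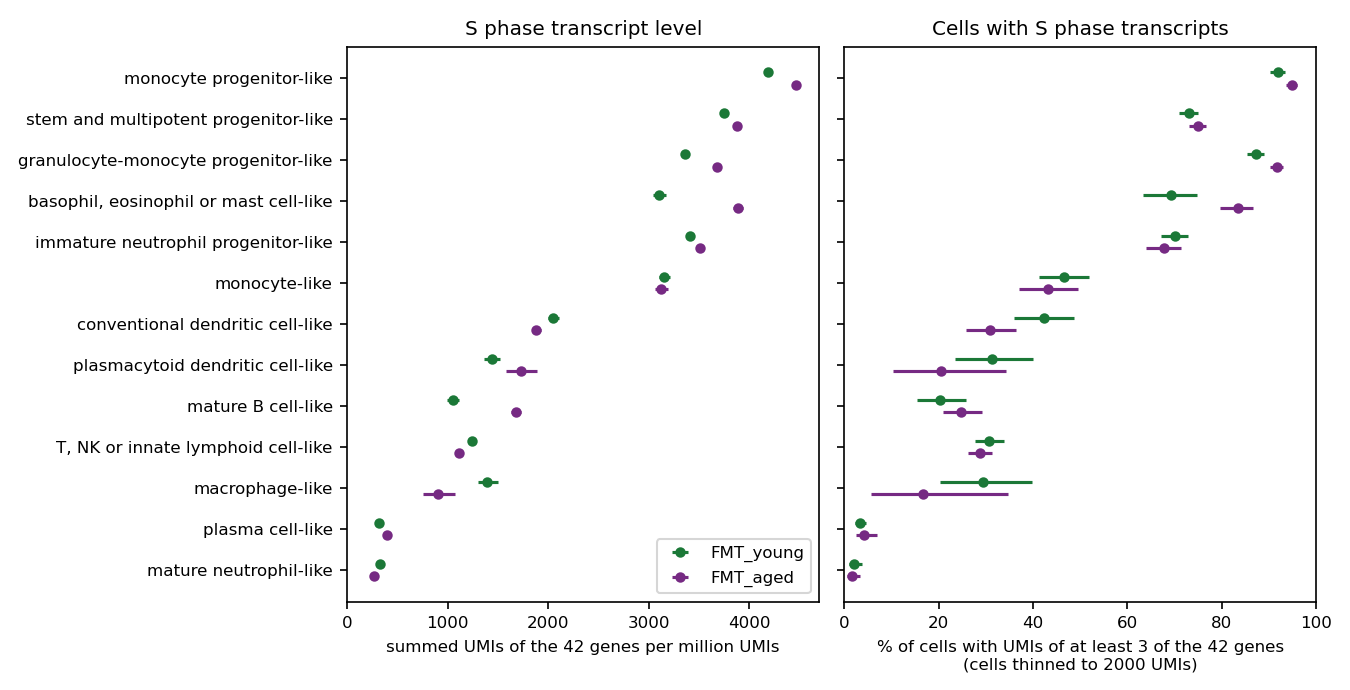
Summed level of the 42 S phase genes in CPM (left) and percentage of cells with UMIs of at least 3 of the 42 genes after thinning each cell to 2000 UMIs (right), by marker-defined class and library. Points are single libraries and bars are 95% counting intervals; plasma cell-like and mature neutrophil-like cells lie lowest in both panels, with at most 395 CPM. Macrophage-like cells are drawn but were not compared, with 36 cells in FMT_aged.

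The share of cells with S phase transcripts was measured beside the level, since a class sum cannot tell fewer dividing cells from fewer transcripts in each. Each cell was thinned to 2000 UMIs, because deeper cells show more genes, and cells with UMIs of at least 3 members were counted. Cells under 2000 UMIs were left out, 765 of 10793 in FMT_young and 554 of 10320 in FMT_aged. In monocyte progenitor-like cells this share was 91.9% in FMT_young and 94.9% in FMT_aged, and in GMP-like cells 87.3% and 91.8%. The GMP-like shares cover unequal parts of the class, since 337 of 1732 cells were left out in FMT_young and 97 of 1726 in FMT_aged, nearly all of them from its shallow cluster 5. In cluster 0, where 3 cells were left out in each library, the share was 87.6% in FMT_young and 91.0% in FMT_aged. Stem and multipotent progenitor-like cells stood lower, at 73.0% in FMT_young (70.97 to 75.03%) and 74.9% in FMT_aged (73.0 to 76.7%), although their summed level was above that of GMP-like cells. These shares depend on the depth and the number of members chosen and are not fractions of cells in S phase. Thinned to 1000 UMIs, stem-like cells had 50.4% in FMT_young and 49.9% in FMT_aged, and GMP-like cells 58.1% and 64.1%. Thinned to 4000 UMIs, stem-like cells had 91.7% and 91.3%, and GMP-like cells 98.4% and 99.3%. With at least 5 members, stem-like cells had 54.4% and 54.5%. Without thinning, stem-like cells had 96.2% in FMT_young and 94.7% in FMT_aged, and GMP-like cells had 93.3% and 99.1%. In stem-like cells the direction between the libraries turned at 1000 and 4000 UMIs and without thinning. At 2000 UMIs and at least 3 members, immature neutrophil progenitor-like cells had 70.1% in FMT_young and 67.8% in FMT_aged. Monocyte-like cells had 46.6% and 43.1%, and T, NK or innate lymphoid-like cells 30.6% and 28.8%. In plasma cell-like cells it was 3.29% in FMT_young and 4.24% in FMT_aged. Mature neutrophils, which do not divide, serve as the background: 10 of 478 thinned cells in FMT_young (2.09%, interval 1.01 to 3.81%) and 6 of 387 in FMT_aged (1.55%, 0.57 to 3.34%) passed, with median depths of 3906 and 3347 UMIs before thinning. Without thinning the share was 12.4% in FMT_young and 6.09% in FMT_aged neutrophils.

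Stem-like cells consisted of 3 clusters that differed in the share of cells with S phase transcripts. Cluster 1, with Mecom, Hlf and Mmrn1, genes known from long-term blood stem cells, among its leading genes, had 49.3% of cells with S phase transcripts in FMT_young and 57.3% in FMT_aged. Cluster 2, led by Gpc3, Cd34 and Muc13, had 85.6% in FMT_young and 93.4% in FMT_aged. Cluster 12, where the cytokine receptor gene Flt3 was among the leading genes, had 88.9% in FMT_young and 90.3% in FMT_aged. The summed levels ran from cluster 1 over cluster 2 to cluster 12 in both libraries, whereas the shares had this order in FMT_young and were highest in cluster 2 in FMT_aged. The levels were 2636 and 3272 CPM in cluster 1, 3787 and 3977 CPM in cluster 2, and 4559 and 4620 CPM in cluster 12 (FMT_young and FMT_aged). The median depth was 7506.5 UMIs in FMT_young and 8247.5 UMIs in FMT_aged in cluster 1, against 23476 and 23235 UMIs in cluster 2.

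Free RNA in the droplets also carried S phase transcripts. Barcodes with fewer than 100 UMIs, which hold no cell, had 2842 CPM of the 42 genes in FMT_young and 3260 CPM in FMT_aged. From hemoglobin and immunoglobulin transcripts, taken as foreign to the class, free RNA was estimated at 1.81% of the UMIs of stem-like cells in FMT_young and 1.56% in FMT_aged. The GMP-like class held a shallow cluster, number 5, with 724 FMT_young and 493 FMT_aged cells and medians of 2111.5 and 3165 UMIs, for which the same estimate was 73.5% and 68.0%. Its S phase level was 3282 CPM in FMT_young and 3649 CPM in FMT_aged and so lay above that of the free RNA. GMP-like values are therefore also given for cluster 0 alone, 1008 FMT_young and 1233 FMT_aged cells with 1.28% and 1.13% estimated free RNA.

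The balance between S phase genes and 53 genes of G2 and M phase differed between classes. The 42 genes summed to 0.67 times the G2 and M genes in stem-like cells of FMT_young and 0.65 times in FMT_aged, and to 0.63 and 0.69 times in GMP-like cells. The ratio was 0.38 in FMT_young and 0.37 in FMT_aged monocyte-like cells and 0.27 and 0.33 in conventional dendritic cell-like cells. The ratio in T, NK or innate lymphoid-like cells was 0.61 in FMT_young and 0.60 in FMT_aged. In plasma cell-like cells it was 0.54 and 0.50, although both classes had far lower S phase levels than progenitors. In mature neutrophil-like cells it was 0.13 in FMT_young and 0.11 in FMT_aged, where Hmgb2, which encodes a chromatin protein, gave 1441 of 2557 CPM of the G2 and M genes in FMT_young and 1431 of 2481 CPM in FMT_aged.

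Individual members were not equally tied to dividing cells. Monocyte progenitor-like cells were the highest class, by the mean of both libraries, for most members, among them all 7 MCM genes. Tyms (thymidylate synthase), E2f8 (a repressor that limits E2F activity), Blm (a helicase that resolves recombination intermediates) and Rfc2 (a subunit of the clamp loader) were highest in basophil-like, eosinophil-like or mast cell-like cells. Rrm2, the small subunit of ribonucleotide reductase, was highest in immature neutrophil progenitor-like cells, with 159 CPM in FMT_young and 155 CPM in FMT_aged. Dtl, which directs degradation of the licensing factor Cdt1, was highest in stem-like cells, with 145 CPM in FMT_young and 140 CPM in FMT_aged.

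The best-covered members of each role show how levels differed between progenitors and mature cells. Mcm6, a subunit of the helicase ring, had 212 CPM in FMT_young and 233 CPM in FMT_aged monocyte progenitor-like cells, against 5.75 and 6.24 CPM in mature neutrophil-like cells. Rrm1, the large subunit of ribonucleotide reductase, had 160 CPM in FMT_young and 165 CPM in FMT_aged monocyte progenitor-like cells, against 7.08 and 1.70 CPM in mature neutrophil-like cells. Gmnn had 128 CPM in FMT_young and 136 CPM in FMT_aged monocyte progenitor-like cells, against 7.96 and 6.81 CPM in mature neutrophil-like cells. Usp1 and Rfc2 were less far apart between these classes. Usp1, a deubiquitinase of the DNA damage response, had 136 CPM in FMT_young and 145 CPM in FMT_aged monocyte progenitor-like cells and 18.1 and 10.8 CPM in mature neutrophil-like cells. Rfc2 had 157 and 169 CPM in monocyte progenitor-like cells and still 48.2 and 56.8 CPM in mature neutrophil-like cells. Gins2, a part of the active helicase, had 50.04 and 50.47 CPM in monocyte progenitor-like cells.

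Slbp, which binds the stem-loop of histone mRNAs, was the member with the opposite pattern between these classes of cells: higher in lymphoid than in stem-like cells. It had 255 CPM in FMT_young and 180 CPM in FMT_aged in T, NK or innate lymphoid-like cells, against 151 and 129 CPM in stem-like cells, a log2 difference of stem-like over T, NK or innate lymphoid-like cells of -0.76 (-0.86 to -0.66) in FMT_young and -0.48 (-0.59 to -0.38) in FMT_aged. Nasp, a histone chaperone, was higher in stem-like cells by only 0.37 (0.26 to 0.49) in FMT_young and 1.07 (0.94 to 1.21) in FMT_aged on the log2 scale. Ubr7, an E3 ubiquitin ligase, Atad2, a chromatin-bound ATPase, and Blm also differed by less than 1 in both libraries. At the other end Cdca7, a cofactor of the chromatin remodeler Hells, was 4.74 (4.12 to 5.43) higher in FMT_young and 5.01 (4.46 to 5.63) higher in FMT_aged. Mcm10, Brip1 and Rad51ap1 differed by between 3.74 and 4.83. Cdca7 had 146 CPM in FMT_young and 165 CPM in FMT_aged stem-like cells, against 5.48 and 5.12 CPM in T, NK or innate lymphoid-like cells.

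**Figure D2:**
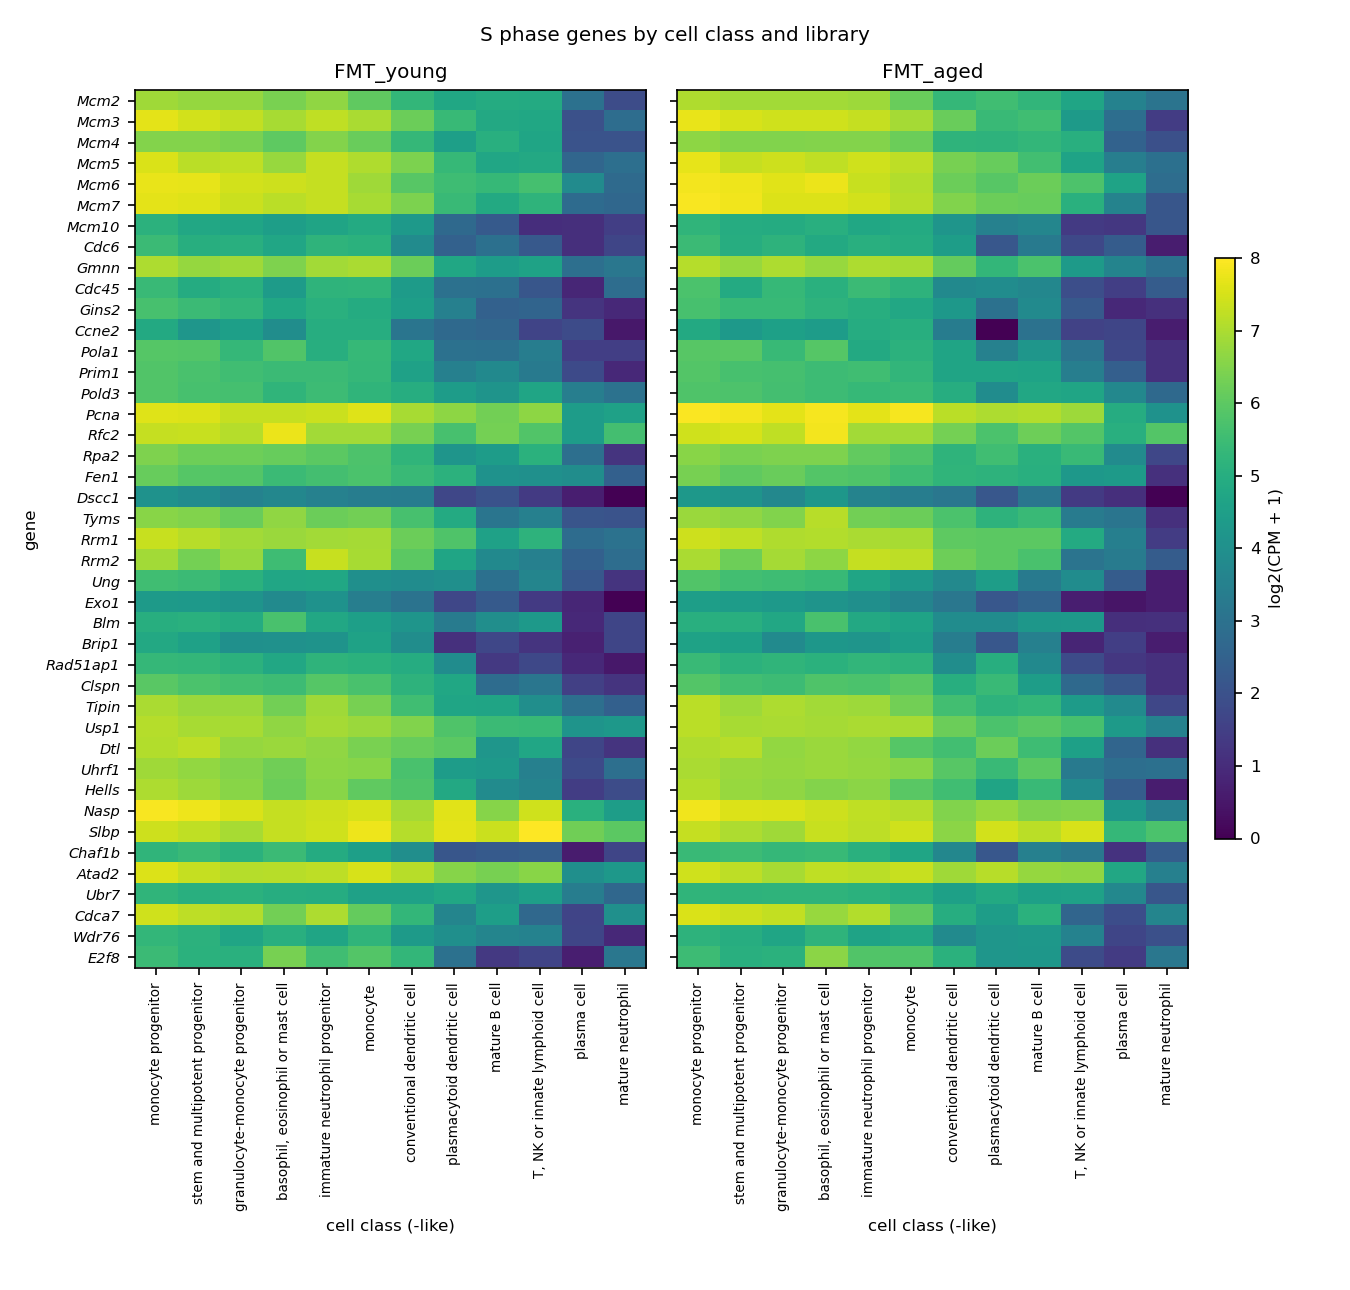
Level of each of the 42 genes, as log2(CPM + 1), in 12 classes ordered by summed S phase level, for FMT_young (left) and FMT_aged (right). Summed levels are lowest in the last 2 columns, plasma cell-like and mature neutrophil-like cells, and Slbp is highest in T, NK or innate lymphoid-like cells.

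Within progenitor classes the members differed in whether they were high or low in cells rich in histone transcripts. Cells of 4 progenitor classes were sorted, in each library, by how many UMIs of 67 histone cluster genes they held after thinning to 2000 UMIs, and the upper quartile was compared with the lower quartile. Replication-dependent histone mRNA accumulates while DNA is copied, although this 3′ assay with poly(A) priming captures only part of it. The list held all symbols starting with Hist, and mature neutrophil-like cells had 700 CPM of it in FMT_young and 780 CPM in FMT_aged. The summed S phase level of histone-rich over histone-poor cells lay between 0.06 and 0.28 on the log2 scale. In stem-like cells the median depths were 23352 and 15221 UMIs in FMT_young. The sort is therefore not a measure of S phase. In all 8 comparisons 9 members were lower in histone-rich cells: Ung, Mcm4, Mcm2, Cdc6, Hells, Cdca7, Mcm3, Chaf1b and Mcm6. In all 8 comparisons 19 members were higher, led by Tyms, E2f8, Brip1, Rrm2, Rad51ap1, Pola1 and Rrm1, and 14 lay in between. The share of all genes with the same sign in all 8 comparisons is not given, so these counts describe the members alone. These counts use only the sign of each ratio, and some intervals included 0. For Exo1, among the higher members, all 8 did, as in stem-like cells of FMT_young (0.06, -0.23 to 0.35). Among the lower members, that of Cdc6 in the same cells did (-0.06, -0.29 to 0.17). Cells at a quartile limit were included, so these sets grow where values are tied.

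Ung, which encodes the glycosylase that removes uracil from DNA, stood at one end. In stem-like cells it had 15.8 CPM in histone-rich and 70.0 CPM in histone-poor cells of FMT_young (log2 -2.15, -2.39 to -1.92) and 17.5 and 68.1 CPM in FMT_aged (-1.964, -2.20 to -1.74). Over the 8 comparisons its log2 ratio lay between -2.15 and -1.09. Tyms stood at the other end, with 131 CPM in histone-rich and 64.2 CPM in histone-poor stem-like cells of FMT_young (1.03, 0.89 to 1.18) and 148 and 72.3 CPM in FMT_aged (1.03, 0.90 to 1.16), and between 0.97 and 1.28 over all 8.

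The MCM genes did not all lie together in this order. Mcm4, Mcm2, Mcm3 and Mcm6 were low in histone-rich cells, Mcm5 and Mcm7 lay in between, and Mcm10, which acts when the loaded helicase is switched on, was higher in all 8. Among licensing and initiation factors Cdc6, which helps load MCM rings, had a median log2 ratio of -0.42, whereas Cdc45, a part of the active helicase, had 0.27 and Gmnn (geminin), which blocks loading once replication has begun, had 0.30. Both ribonucleotide reductase genes, Rrm1 (0.73) and Rrm2 (0.88), were in the higher group. Clspn, an adaptor of the replication checkpoint, was at 0.49, and Brip1 and Rad51ap1, which act in recombination repair, were at 0.92 and 0.88.

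The same cells were also sorted by G2 and M transcripts. In GMP-like cells the log2 ratio of G2 and M-rich over poor cells was -2.85 in FMT_young and -2.74 in FMT_aged for Ung, and 0.79 and 0.70 for Tyms. In stem-like cells 39 of 42 members in FMT_young and 38 of 42 in FMT_aged were higher in G2 and M-rich cells, with 3895 and 2394 CPM of the 42 genes in rich and poor cells of FMT_young and 3871 and 2432 CPM in FMT_aged. The rich set there had median depths of 24869 UMIs in FMT_young and 24806.5 UMIs in FMT_aged, against 8114 and 7982 UMIs in the poor set. The other classes did not share this pattern. In GMP-like cells 24 of 42 members in FMT_young and 26 in FMT_aged were lower in G2 and M-rich cells. In monocyte progenitor-like cells 27 and 30 were lower, and in immature neutrophil progenitor-like cells 20 and 26. The share of all genes on each side is not given for these sorts. The counts therefore do not show whether the pattern is particular to the members. The log2 ratios of the sums were -0.17 and -0.26, -0.23 and -0.36, and 0.04 and -0.16 in these classes. Across the 42 genes the log2 ratios of FMT_young and FMT_aged correlated with Pearson's r between 0.96 and 0.97 in the histone sorts and in the G2 and M sorts of these 4 classes. Genes are not independent replicates, and both libraries share the assay and the same sorting genes, so these are descriptions.

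**Figure D3:**
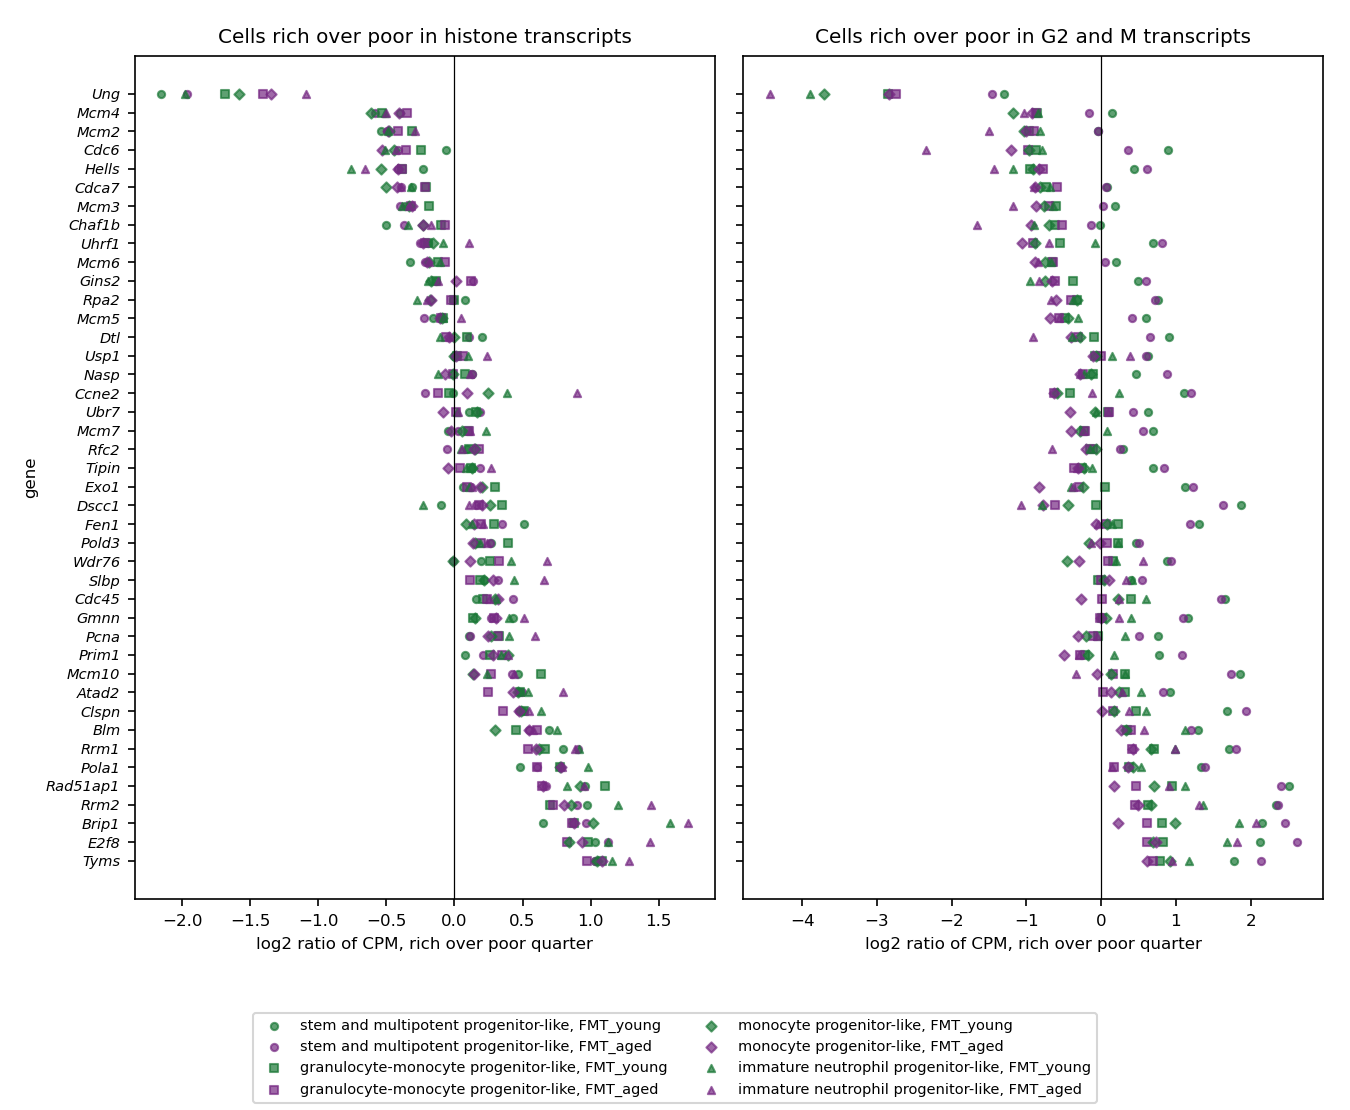
Log2 ratio of CPM of each member between the upper and lower quartile of cells by histone transcripts (left) or by G2 and M transcripts (right), in 4 progenitor classes (marker shapes) and 2 libraries (colours). Members run from Ung at one end, below 0 in every histone comparison, to Tyms at the other, above 0 in every one. In the G2 and M panel stem-like cells lie to the right, with most members higher in G2 and M-rich cells. In GMP-like and monocyte progenitor-like cells most members are lower there.

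The promoter strings can be set beside this order. Among the 9 members that were lower in all histone comparisons, 8 had a promoter entry and 5 of these (62.5%) held an E2F string: Cdc6, Hells, Cdca7, Mcm3 and Mcm6. Among the 19 members that were higher in all, 16 had an entry and 3 (18.8%) held one: Pold3, Clspn and Pola1. The remaining members with a match, Mcm5, Mcm7, Uhrf1, Dtl and Ubr7, were among the 14 that lay in between. Over all 32 members with an entry, 13 held a string, so matches were not particular to the lower members. The comparison was made after the order had been seen and was not tested.

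The genes whose thinned levels ran most closely with the summed members were led by cytoskeletal and replication genes. Over 3992 stem-like cells and 5031 genes present in at least 5% of cells, Stmn1, which encodes a microtubule regulator, had Pearson's r of 0.44, Pclaf, a PCNA-binding protein, 0.42, Tuba1b 0.39 and Dut, which removes dUTP, 0.38. Ptma, H2afz, Ppia, Lig1, Ranbp1 and Ybx1 followed with r between 0.38 and 0.29. In 3024 GMP-like cells r was 0.20 or lower, with Pclaf, Dut and Ptma first, which in such sparse counts is weak. These cells share their library and their total of 2000 UMIs.

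Between the libraries, S phase genes were slightly lower in FMT_young over all cells, close to the shift of genes in general. The 42 genes summed to 3090 CPM in FMT_young and 3467 CPM in FMT_aged, a log2 ratio of FMT_young over FMT_aged of -0.17 (-0.17 to -0.16). The median of the members was -0.17 (-0.23 to -0.12), where that of all 15049 genes with at least 30 UMIs over both libraries was -0.13. Of 42 members 36 were below 0, where 74.2% of all genes were, 2 were at least 20% lower (16.9% of all genes) and 0 were at least 25% higher (8.73%), the 2 sides of the fold limit used throughout. Plasma cell-like cells, which have few S phase transcripts and rich immunoglobulin RNA, were 1128 of the FMT_young and 358 of the FMT_aged cells. These counts leave out unnamed clusters with immunoglobulin genes among their leading genes. The unnamed cluster led by Igkv6-15 held 3 FMT_young and 319 FMT_aged cells. Those with Igkv1-117 and with Igkv4-55 held 637 and 46 cells, and 81 and 28 cells. With TMM scaling, which discounts such differences in composition, the median was -0.05.

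Pcna, the sliding clamp of DNA polymerases, had the lowest ratio over all cells and was lower in 11 of 12 classes. It had 152 CPM in FMT_young and 202 CPM in FMT_aged over all cells (-0.41, -0.44 to -0.39). In stem-like cells it had 189 CPM in FMT_young and 233 CPM in FMT_aged (-0.30, -0.35 to -0.26), and in monocyte progenitor-like cells 195 and 248 CPM (-0.35, -0.39 to -0.30). Ung had 30.9 CPM in FMT_young and 39.7 CPM in FMT_aged over all cells (-0.36, -0.42 to -0.31), and Mcm7 148 and 184 CPM (-0.31, -0.34 to -0.29). Mcm6 was lower in all 11 classes where it reached 30 UMIs, and Mcm7 in 10 of 11. Slbp and Nasp went the other way and were higher in FMT_young in 11 of 12 classes each. Slbp had 146 CPM in FMT_young and 129 CPM in FMT_aged over all cells (0.17, 0.15 to 0.20), and Nasp 178 and 171 CPM (0.05, 0.03 to 0.08). All classes of a group come from 1 library, so agreement between classes is not replication.

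Stem and multipotent progenitor-like cells differed little between the libraries as a class. The members' median log2 ratio was -0.07 (-0.11 to 0.02), where that of all 12794 genes was -0.09, and 24 of 42 members were below 0 (69.3% of all genes). No member was past the fold limit, neither lower (0 of 42, 13.3% of all genes) nor higher (0 of 42, 7.87%). The roles did not move as 1: the 8 polymerase and clamp genes summed to 655 CPM in FMT_young and 744 CPM in FMT_aged (-0.18, -0.21 to -0.16) and the 7 MCM genes to 943 and 1018 CPM (-0.11, -0.13 to -0.09). The 9 chromatin and histone supply genes summed to 996 CPM in FMT_young and 956 CPM in FMT_aged (0.06, 0.04 to 0.08), with Nasp at 221 and 190 CPM (0.22, 0.17 to 0.27) and Slbp at 151 and 129 CPM (0.23, 0.17 to 0.28). Clspn had 52.2 CPM in FMT_young and 46.3 CPM in FMT_aged (0.17, 0.08 to 0.27). Rfc2 had 161 CPM in FMT_young and 183 CPM in FMT_aged (-0.19, -0.24 to -0.13), and Mcm7 196 and 224 CPM (-0.19, -0.24 to -0.14). The share of stem-like cells with S phase transcripts had a log2 ratio of -0.04 (-0.09 to 0.02). With TMM scaling the median of the members was 0.01.

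The cluster of stem-like cells richest in stem cell genes, cluster 1, showed the widest gap among the progenitor clusters, with 694 FMT_young and 1056 FMT_aged cells. The members' median was -0.41 (-0.47 to -0.28), against -0.11 for all 11388 genes. In FMT_young 40 of 42 members were lower (66.4% of all genes), 25 of them past the fold limit (19.4%), and 0 were higher past it (9.63%). Tyms had 47.9 CPM in FMT_young and 74.6 CPM in FMT_aged (-0.64, -0.83 to -0.45), Mcm2 62.2 and 92.9 CPM (-0.58, -0.75 to -0.41), and Pcna 149 and 217 CPM (-0.54, -0.65 to -0.43). The exceptions were Nasp, with 181 CPM in FMT_young and 145 CPM in FMT_aged (0.32, 0.21 to 0.43), and Slbp, with 145 and 128 CPM (0.18, 0.06 to 0.30). Of 56 other DNA replication genes 52 were lower and 31 past the fold limit, among them Lig1 (DNA ligase) with 85.2 CPM in FMT_young and 120 CPM in FMT_aged. Of 22 genes of E2F, retinoblastoma and G1 control 16 were lower, 4 of them past the fold limit, and 3 were higher past the fold limit, and cyclin D1 (Ccnd1) had 56.2 CPM in FMT_young and 44.2 CPM in FMT_aged. Of 53 G2 and M genes 49 were lower and 15 past the fold limit.

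This gap depended on which cells were placed in the cluster. The cluster with the highest Hlf level was found again under 6 other settings of filter and clustering. With it the members' median ranged from -0.51 without doublet removal to 0.14 at a clustering resolution of 2.0, where that cluster held 173 FMT_young and 162 FMT_aged cells and the share of cells with S phase transcripts was 27.5% and 25.5%. With at most 5% mitochondrial UMIs the whole stem-like class was 1 cluster, and it was -0.14. Cells picked without clusters, by UMIs of at least 2 of 9 stem cell genes after thinning, gave -0.22 (532 FMT_young and 660 FMT_aged cells), with shares of 46.8% and 50.2%. The gap in the share of cells was not seen from 2000 UMIs per cell upwards (42.1% in FMT_young and 41.9% in FMT_aged) or with cell cycle genes kept in the clustering (43.5% and 43.1%). Among markers of other types in cluster 1, the largest gaps between the libraries were in 2 lists: the 11 immature neutrophil markers summed to 367 CPM in FMT_young and 182 CPM in FMT_aged, 10 of 11 higher, and the 14 monocyte markers to 806 and 463 CPM, 7 of 14 higher, with none of the markers of either list at 0 in either library. Their part in the result was not tested. In cluster 2 the median was -0.07 and in cluster 12 -0.02, with medians of all genes of -0.06 and -0.03. Slbp was again higher and Pcna lower: Slbp had 134 CPM in FMT_young and 116 CPM in FMT_aged in cluster 2 and 197 and 167 CPM in cluster 12, and Pcna 182 and 228 CPM in cluster 2 and 239 and 273 CPM in cluster 12.

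**Figure D4:**
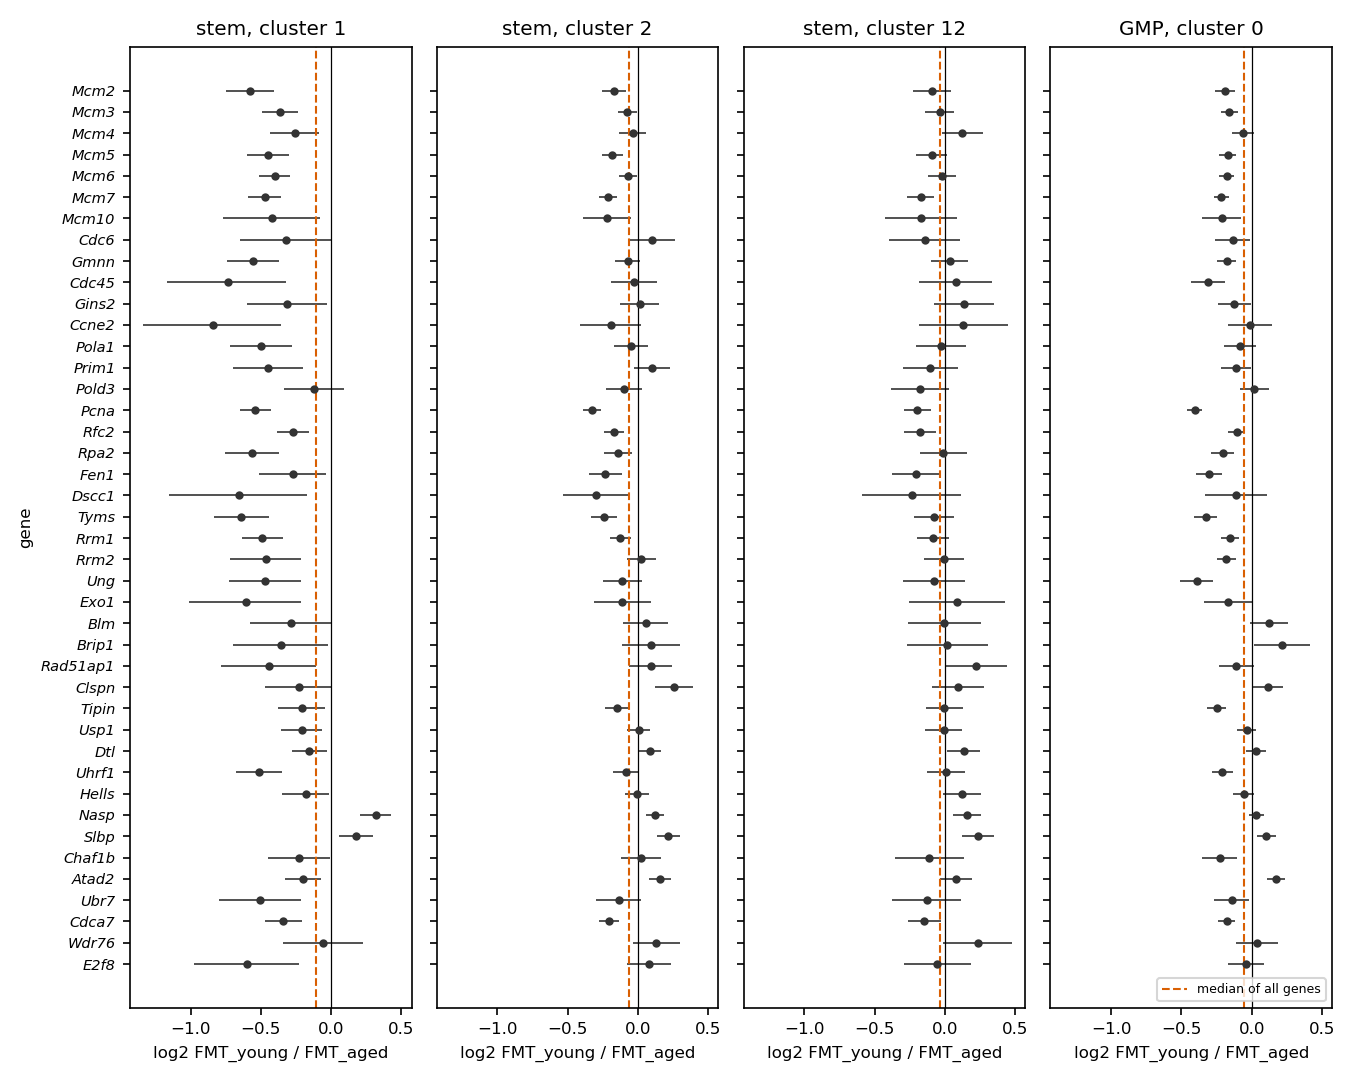
Log2 ratio of FMT_young over FMT_aged for each of the 42 genes in 3 clusters of stem and multipotent progenitor-like cells and in cluster 0 of GMP-like cells. Points are ratios of class sums with 95% counting intervals, and the dashed line is the median of all genes; in cluster 1 all members but Nasp and Slbp lie below 0, while in clusters 2 and 12 they scatter around the line.

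GMP-like cells had lower S phase levels in FMT_young by a small margin. The median of the members was -0.14 (-0.17 to -0.09), against -0.06 for all 11898 genes, with 33 of 42 members below 0 (63.1% of all genes), 2 lower past the fold limit (9.33%) and 0 higher past the fold limit (7.98%). In cluster 0 alone the median was also -0.14 (-0.18 to -0.08), with 33 below 0 (61.2% of all genes) and 3 lower past the fold limit (9.04%). There Pcna had 151 CPM in FMT_young and 201 CPM in FMT_aged (-0.41, -0.46 to -0.35), Ung 34.3 and 44.95 CPM (-0.39, -0.51 to -0.27), and Tyms 70.4 and 88.4 CPM (-0.33, -0.41 to -0.24). Atad2 was higher with 139 CPM in FMT_young and 124 CPM in FMT_aged (0.17, 0.11 to 0.24), as were Slbp with 122 and 114 CPM (0.10, 0.04 to 0.17) and Brip1 with 14.8 and 12.7 CPM (0.22, 0.02 to 0.41). In the whole GMP-like class, 45 of 56 other replication genes were below 0 (median -0.13), whereas the 53 G2 and M genes were split, 24 below and 29 above 0 (median 0.01). Their sums gave the same contrast, with 3357 and 3681 CPM for the S phase genes and 5348 and 5364 CPM for the G2 and M genes in FMT_young and FMT_aged.

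In monocyte progenitor-like and immature neutrophil progenitor-like cells the members' medians were nearer to those of all genes than in GMP-like cells. The median of the members was -0.09 in monocyte progenitor-like cells (all genes -0.05), with 32 of 42 below 0 (61.9% of all genes), 2 lower (7.83%) and 0 higher (7.92%) past the fold limit, and Cdc45 at 41.9 CPM in FMT_young and 52.7 CPM in FMT_aged (-0.33, -0.43 to -0.23). Atad2 had 189 CPM in FMT_young and 171 CPM in FMT_aged (0.14, 0.09 to 0.19). Different clusters held most of this class in each library: cluster 4 had 1033 FMT_young and 481 FMT_aged cells, and cluster 6 had 180 and 935. The S phase genes summed to 4165 CPM in FMT_young and 4463 CPM in FMT_aged in cluster 4 (-0.10, -0.11 to -0.09), and to 4319 and 4460 CPM in cluster 6 (-0.05, -0.07 to -0.02). The log2 ratio of the summed G2 and M genes was -0.24 in cluster 4 and -0.05 in cluster 6, although it was 0.004 over the class.

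The members' median was -0.04 in immature neutrophil progenitor-like cells, with 27 of 42 below 0 (60.6% of all genes) and 0 past the fold limit in either direction (8.82% of all genes lower and 7.83% higher). E2f8 had 46.0 CPM in FMT_young and 56.0 CPM in FMT_aged there (-0.28, -0.43 to -0.14). Its 2 clusters went opposite ways. In cluster 7, with 632 FMT_young and 353 FMT_aged cells, the S phase genes summed to 3664 CPM in FMT_young and 3951 CPM in FMT_aged (-0.11, -0.13 to -0.09). In cluster 10, with 382 FMT_young and 310 FMT_aged cells, they summed to 2375 CPM in FMT_young and 2195 CPM in FMT_aged (0.11, 0.07 to 0.16). The difference between these clusters was not tested. Monocyte-like cells had a median of -0.01, with 22 of 42 members below 0 (58.1% of all genes). Dtl had 83.01 CPM in FMT_young and 57.8 CPM in FMT_aged monocyte-like cells (0.52, 0.24 to 0.81), and Nasp 181 and 137 CPM (0.41, 0.22 to 0.60).

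Basophil-like, eosinophil-like or mast cell-like cells had lower S phase levels in FMT_young together with lower G2 and M levels. The median of the members was -0.33 (-0.45 to -0.25), against -0.09 for all genes, with 40 of 42 below 0 (61.4% of all genes) and 21 lower past the fold limit (21.9%). Rrm2 had 44.6 CPM in FMT_young and 99.7 CPM in FMT_aged (-1.16, -1.45 to -0.88), Pcna 158 and 235 CPM (-0.57, -0.73 to -0.42), and Tipin, a replication fork protein, 77.7 and 117 CPM (-0.59, -0.81 to -0.37). All 53 G2 and M genes were below 0, 42 of them past the fold limit. The estimate of free RNA in this class was 14.1% in FMT_young and 4.63% in FMT_aged, and in its largest cluster, led by Prss34 and Mcpt8, 16.4% and 1.34%. In that cluster the members' median was -0.36. The part of free RNA in the result was not tested.

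In mature B cell-like cells the gap was wider. The members' median was -0.84 (-1.37 to -0.66) over the 39 of 42 members with at least 30 UMIs, against -0.07 for all genes, with 36 below 0 (56.1% of all genes) and 35 lower past the fold limit (29.7%). Tyms had 10 UMIs in FMT_young (7.57 CPM) and 112 UMIs in FMT_aged (42.03 CPM), Rrm2 17 and 136 UMIs (12.9 and 51.0 CPM), and E2f8 2 and 48 UMIs (-3.57, -6.66 to -1.64). The class joined 2 clusters. In cluster 19, where Vpreb3 and Ebf1 were among the leading genes, the 42 genes summed to 1411 CPM in FMT_young and 3203 CPM in FMT_aged, and in cluster 18 to 735 and 1037 CPM. In cluster 19 the 12 markers of pro-B and pre-B cells, stages that divide, summed to 6311 CPM in FMT_young and 9367 CPM in FMT_aged, with 3 of 12 higher and none at 0. The 12 mature B cell markers there summed to 19635 and 12820 CPM, with 12 of 12 higher and none at 0. Cd79a and Cd79b are in both lists and so are among the higher markers of each. Over the whole class the 11 immature neutrophil markers summed to 3746 CPM in FMT_young and 641 CPM in FMT_aged, with 10 of 11 higher and none at 0. Their part in the result was not tested. The G2 and M genes summed to 2218 CPM in FMT_young and 4584 CPM in FMT_aged over the whole class. The thinned share of cells with UMIs of at least 3 members was 20.2% in FMT_young (15.5 to 25.7%) and 24.8% in FMT_aged (20.9 to 29.1%). Left out of it as too shallow were 82 of 334 and 72 of 511 cells. Fewer dividing cells in the class and fewer transcripts per dividing cell cannot be told apart in the sums.

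Plasma cell-like cells had few S phase transcripts in either library, and 32 of 42 members reached 30 UMIs. Their median was -0.74 (-0.91 to -0.37), against -0.18 for all genes, with 29 below 0 (67.8% of all genes), 26 lower (35.4%) and 2 higher (13.3%) past the fold limit. The 2 higher ones were Slbp, with 75.2 CPM in FMT_young and 39.2 CPM in FMT_aged (0.94, 0.73 to 1.15), and Nasp, with 32.8 and 17.8 CPM (0.88, 0.57 to 1.21). A cluster of 911 FMT_young cells and 1 FMT_aged cell made up most of the class in FMT_young. Without it, in cluster 15, Slbp had 73.7 CPM in FMT_young and 39.3 CPM in FMT_aged (0.91, 0.63 to 1.18), while Nasp had 17.6 and 17.8 CPM (-0.02, -0.53 to 0.47).

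Conventional dendritic cell-like cells went the other way. The members' median was 0.13 (0.03 to 0.21), against 0.04 for all genes, with 13 of 42 below 0 (44.8% of all genes), 1 lower (12.1%) and 9 higher (19.2%) past the fold limit. Rad51ap1 had 30.3 CPM in FMT_young and 14.3 CPM in FMT_aged (1.08, 0.56 to 1.61), Dtl 68.8 and 47.3 CPM (0.54, 0.24 to 0.85), and Slbp 137 and 95.7 CPM (0.52, 0.30 to 0.73). All 53 G2 and M genes were above 0, 36 of them past the fold limit. Free RNA was estimated at 11.0% in FMT_young and 5.28% in FMT_aged, and its part in the result was not tested. In T, NK or innate lymphoid-like cells 33 of 42 members reached 30 UMIs, with a median of 0.05 (-0.11 to 0.21). Of these 15 were below 0 (68.2% of all genes), 4 lower (21.1%) and 7 higher (8.29%) past the fold limit, led by Nasp with 171 CPM in FMT_young and 90.5 CPM in FMT_aged (0.92, 0.75 to 1.10) and Slbp with 255 and 180 CPM (0.50, 0.37 to 0.63). In plasmacytoid dendritic cell-like cells 22 of 42 members reached 30 UMIs and 18 were below 0 (55.4% of all genes), among them Rrm2, with 25.2 CPM in FMT_young and 62.8 CPM in FMT_aged (-1.32, -2.29 to -0.34), while Nasp had 199 and 108 CPM (0.88, 0.32 to 1.48). In mature neutrophil-like cells only 9 of 42 members reached 30 UMIs and 8 of these were above 0, so that 1 was below 0 (55.3% of all genes). Nasp was among the 8, with 47 UMIs in FMT_young and 18 UMIs in FMT_aged, a level at which counts limit any comparison.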

How the data were processed

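The deposited files hold raw UMI counts per gene and barcode for 2 bone marrow libraries (10x Genomics Chromium 3′ chemistry per the labels). They were made with Cell Ranger against mm10 per the submitters' processing notes, and the file headers name version 3.1.0. All 6794880 barcodes of each file were kept by the authors, so cells were called here. Unit and identity columns (gene symbols, barcodes) were used as deposited.

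Cells were barcodes from 1000 UMIs and 500 genes upwards whose mitochondrial share was 10% or less. Doublets were scored against simulated pairs, and 0.8% of cells per 1000 cells called were removed. Free RNA was read from barcodes under 100 UMIs. Clustering used 2000 variable genes, 40 principal components, 20 nearest neighbours and Leiden resolution 1.0, without 390 cell cycle genes. A cluster was named from at least 3 passing markers. The limit of 20% Kit-positive cells for progenitor names and the depth limit of 3 times the library median were set after the clusters had been seen.

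UMIs were summed per class and library. Levels are CPM with exact Poisson intervals, ratios are FMT_young over FMT_aged with exact conditional binomial intervals, and shares have exact Clopper-Pearson intervals, all at 95%. Genes needed 30 UMIs over both libraries, and members at least 20% lower or 25% higher were counted. With 1 library per group no test was made. UMIs correct for amplification, but intervals and floors cover counting error only. The interval of a list median comes from order statistics over its genes. The ratio step was tested on simulated data.

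Named genes were the 2 members with the most UMIs in each role and, in each class, up to 3 members in each direction whose interval lay farthest from 0. The members, lists and markers were chosen with earlier results of these data known. Cells of progenitor classes were sorted by histone or G2 and M UMIs at the 25th and 75th percentile of each library after thinning. The histone comparison, the promoter search and the single-gene profiles were chosen after seeing the data. Promoter sequences came from RefSeq (GRCm38.p6), and 10 of 42 members had no entry there. Alternatives covered filters, clustering, scaling (TMM in edgeR 4.0.16 and median of ratios), free RNA and thinning. Other tools were Python 3.11.15, NumPy 2.4.6, SciPy 1.17.1, pandas 2.3.3, scikit-learn 1.9.0, igraph 0.11.9, leidenalg 0.10.2 and matplotlib 3.10.9.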

Additional observations from a re-analysis of the deposited data

Results flagged for a closer look

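The summed S phase level did not differ between the libraries in the same direction in all classes, and this difference between classes was not tested. The log2 ratio of FMT_young over FMT_aged was -0.68 in mature B cell-like cells, -0.33 in basophil, eosinophil or mast cell-like cells, -0.31 in plasma cell-like cells and -0.26 in plasmacytoid dendritic cell-like cells. It was -0.13 in GMP-like, -0.092 in monocyte progenitor-like, -0.050 in stem and multipotent progenitor-like and -0.042 in immature neutrophil progenitor-like cells. The opposite direction was seen in conventional dendritic cell-like cells with 0.13, in T, NK or innate lymphoid-like cells with 0.16 and in mature neutrophil-like cells with 0.30. The counting interval of each of these 11 ratios lay on 1 side of 0, and spread between animals is not part of it.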

How the results depend on the processing

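Values are log2 ratios of FMT_young over FMT_aged, and the cause of a move was not tested. In stem and multipotent progenitor-like cells the median of the members moved to -0.12 without doublet removal, -0.14 with at most 5% mitochondrial UMIs, -0.14 with cell cycle genes kept in the clustering, -0.19 with classes by marker score and -0.41 in cluster 1 alone, and stayed between -0.10 and 0.01 under 12 other alternatives. In GMP-like cells it moved to -0.073 with at least 2000 UMIs, -0.080 with TMM and -0.086 with median of ratios scaling. Over all cells it moved to -0.046 with TMM, -0.052 with median of ratios scaling and -0.12 as a mean over cells. The ratio of cell shares in stem-like cells moved to -0.11 with cell cycle genes kept, -0.15 by marker score, -0.22 in cluster 1 and -0.13 in cluster 2. In GMP-like cells, main value -0.07, it moved to -0.14 when thinned to 1000 and -0.013 when thinned to 4000 UMIs, -0.18 with at least 5 members and -0.12 in cluster 5. The level of stem-like over mature neutrophil-like cells, 3.70, became 3.41 without doublet removal, 3.61 with at most 5% mitochondrial UMIs, 1.20 at resolution 0.5, 3.41 at 2.0, 3.46 with cell cycle genes kept and 2.63 by marker score.

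In the cluster richest in Hlf, the median became -0.51 without doublet removal, -0.14 with at most 5% mitochondrial UMIs, -0.23 with cell cycle genes kept, -0.22 in cells picked by stem cell genes, -0.48 as a mean over cells, and reversed to 0.14 at resolution 2.0. Its share ratio, -0.22, reversed to 0.0048 with at least 2000 UMIs, 0.11 at resolution 2.0 and 0.015 with cell cycle genes kept. Single clusters and the Hlf comparison were chosen after seeing the data. No paired analysis was possible because each group has 1 library, which also leaves no replicate to omit. Free RNA was not subtracted over all cells, and clustering settings do not bear on that sum. Depth limits mature neutrophil-like, plasmacytoid and B cell-like values most.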
